A study of Bos indicus with 6 samples.

Results

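A set of 6 abundant genes was higher in the endometrium of cows on a large-follicle regimen, and each gene is described in each cow. They are 6 of the 24616 Ensembl cattle gene identifiers in the deposited table: ENSBTAG00000046351, ENSBTAG00000017020, ENSBTAG00000043570, ENSBTAG00000004555, ENSBTAG00000021829 and ENSBTAG00000007415. They were chosen by their measured values, namely a mean normalised read count above 600 over the 6 libraries and a clear difference between the regimens, upwards in the large-follicle group. Their difference between the regimens is therefore given as a description, with no test. The table lists identifiers without gene names, and 0 of the 6 matched the gene table used here, so no name, function, position or sequence is given for any of them.

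The animals were healthy, multiparous, nonlactating Nelore cows, a zebu beef breed, and each of the 6 libraries came from 1 cow. All cows had been presynchronised and were given estradiol benzoate and a progesterone-releasing device on day -10, cloprostenol (a prostaglandin F analogue) when the device was removed, and GnRH on day 0. In the large follicle, large corpus luteum regimen (LF-LCL, 3 cows) cloprostenol was also given on day -10, and the device was removed 42 to 54 hours before GnRH. In the small follicle, small corpus luteum regimen (SF-SCL, 3 cows) there was no cloprostenol on day -10, and the device was removed 30 to 36 hours before GnRH. Endometrium was taken at slaughter on day 7. The whole trial had 74 cows (35 under LF-LCL, 39 under SF-SCL). The sources used here give neither the cows' ages nor how the 6 sequenced animals were picked. The regimens differ in drug schedule and in the interval before GnRH as well as in the follicle and corpus luteum they are named for, and the parts of these that go with a difference cannot be told apart.

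A preovulatory follicle secretes estradiol, and after ovulation its remains form the corpus luteum, which secretes progesterone. Both hormones act on the endometrium, the lining of the uterus: estradiol promotes growth of the tissue and expression of the progesterone receptor, and progesterone then turns its glands and surface epithelium towards secretion. In cattle the early embryo enters the uterus within days of ovulation and lives free in these secretions for a time before it attaches. The comparison addresses whether the hormonal setting around ovulation goes with a different endometrial transcriptome.

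Values are normalised read counts, that is, reads assigned to a gene divided by a size factor for the library. They are not corrected for gene length, so a gene's place by read count among other genes reflects its length as well as its expression, and expression is compared only across cows. The tissue pieces were bulk samples, in which more cells of a type and more RNA per cell cannot be told apart. Markers of cell types could not be read without gene names, so the cell makeup of the libraries was not tested. Libraries held 2896663 to 7811332 reads assigned to genes, as recovered from the values. SF-SCL replicate 3 was the shallowest and, for 4 of the 6 genes, the highest of its group, and the log2 differences without it are given for those 4 genes.

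In the 3 LF-LCL cows the 6 genes together took 0.876%, 1.09% and 0.892% of the normalised reads of a library. In SF-SCL replicates 1 to 3 they took 0.241%, 0.222% and 0.319%. The group means were 0.953% ± 0.121 (SD, n = 3) and 0.261% ± 0.0513 (SD, n = 3). For each of the 6 genes, every LF-LCL cow lay above every SF-SCL cow. That separation is part of how the genes were picked, and among the 1882 genes with a mean above 600 it held for 420 (22.3%). Over all 12535 genes with a mean of at least 1 it held for 11.8%. The reverse, every LF-LCL cow below every SF-SCL cow, held for 219 of the 1882 genes.

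**Figure D1:**
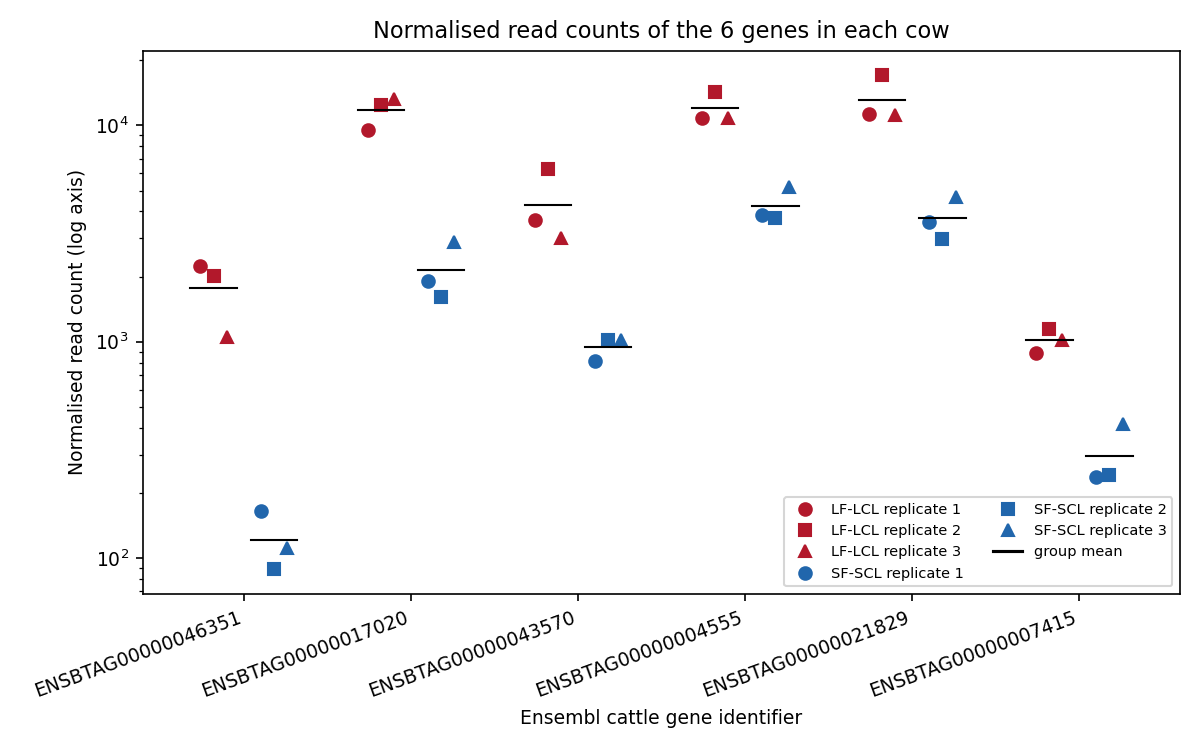
Normalised read count (log axis) of each of the 6 genes in each of the 6 cows, LF-LCL in red and SF-SCL in blue, with the symbol giving the replicate and the black bar the group mean. No red point lies below a blue point of the same gene, and the distance is widest for ENSBTAG00000046351 (1764.7 against 121.3 on average) and narrowest for ENSBTAG00000004555.

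ENSBTAG00000046351 showed the widest separation. Its normalised read count was 2235, 2012 and 1047 in LF-LCL replicates 1 to 3 and 163.9, 88.7 and 111.3 in SF-SCL replicates 1 to 3. LF-LCL replicate 3 was the low cow of its group, and it was 6.39 times the highest SF-SCL cow. The group means were 1765 ± 632 and 121.3 ± 38.6 (SD, n = 3 each), a ratio of 14.5 and a log2 difference of 3.82 with a standard error of 0.427. In the ordering of all genes within a library, this gene stood at places 278 to 927 in LF-LCL and at places 5306 to 6845 in SF-SCL. Its mean over the 6 libraries (943.0) lay between the groups, below each LF-LCL cow and above each SF-SCL cow. The SF-SCL values rested on 126, 122 and 72 reads. The exact 95% Poisson interval in the shallowest library, SF-SCL replicate 3, was 87.1 to 140 in normalised read counts, which covers counting error only. In SF-SCL replicate 1, the highest of its group, the interval was 137 to 195. As the gene was picked for its separation, these intervals show only the precision of low counts. They do not bear on that separation.

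ENSBTAG00000017020 had the next widest separation. It was at 9564, 12463 and 13279 in LF-LCL replicates 1 to 3 and at 1910, 1616 and 2897 in SF-SCL replicates 1 to 3. The high cow of the SF-SCL group was replicate 3, and the lowest LF-LCL cow was 3.30 times that value. The means were 11769 ± 1952 and 2141 ± 671 (SD, n = 3 each), a ratio of 5.50 and a log2 difference of 2.49 with a standard error of 0.289. By place within a library it was among the 18 genes with the most reads in each LF-LCL cow, and at places 187 to 434 in SF-SCL. Without SF-SCL replicate 3 the log2 difference was 2.73, the largest with any cow left out. The smallest was 2.31, without SF-SCL replicate 2.

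ENSBTAG00000043570 was at 3639, 6276 and 3000 in LF-LCL replicates 1 to 3 and at 813.1, 1018 and 1013 in SF-SCL replicates 1 to 3. One LF-LCL cow, replicate 2, stood well above the other 2, while the SF-SCL cows lay close together. The lowest LF-LCL cow was 2.95 times the highest SF-SCL cow. The means were 4305 ± 1737 and 947.8 ± 117 (SD, n = 3 each), a ratio of 4.54 and a log2 difference of 2.12 with a standard error of 0.336. Without LF-LCL replicate 2 the log2 difference was 1.81, and without LF-LCL replicate 3 it was 2.34.

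ENSBTAG00000021829 and ENSBTAG00000004555 had the largest mean read counts of the 6 genes, at places 22 and 25 of the whole table. ENSBTAG00000021829 was at 11294, 17029 and 11184 in LF-LCL replicates 1 to 3 and at 3580, 2993 and 4659 in SF-SCL replicates 1 to 3. Its means were 13169 ± 3343 and 3744 ± 845 (SD, n = 3 each), a ratio of 3.52 and a log2 difference of 1.81 with a standard error of 0.273. ENSBTAG00000004555 was at 10846, 14234 and 10864 in LF-LCL replicates 1 to 3 and at 3859, 3719 and 5185 in SF-SCL replicates 1 to 3. Its means were 11981 ± 1951 and 4254 ± 809 (SD, n = 3 each), a ratio of 2.82 and a log2 difference of 1.498 with a standard error of 0.200. The high cow of each group was the same for both genes, replicate 2 in LF-LCL and replicate 3 in SF-SCL. The lowest LF-LCL cow was 2.40 times the highest SF-SCL cow for ENSBTAG00000021829 and 2.09 times for ENSBTAG00000004555. Without SF-SCL replicate 3 the log2 differences were 1.98 and 1.65, respectively, the largest with any cow left out. The smallest were 1.61 and 1.37, respectively, both without LF-LCL replicate 2. Both genes were among the 15 with the most reads in every LF-LCL cow, and at places 81 to 150 and 68 to 106, respectively, in SF-SCL.

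These 2 genes moved almost in parallel, but not by the same factor. The ratio of the reads of ENSBTAG00000021829 to those of ENSBTAG00000004555 within a library does not depend on the size factor. It was 1.04, 1.20 and 1.03 in LF-LCL replicates 1 to 3 and 0.928, 0.805 and 0.899 in SF-SCL replicates 1 to 3. The ratio was above 1 in each LF-LCL cow and below 1 in each SF-SCL cow, so the first gene had the larger difference between the regimens. As both genes were picked for that difference, the ratio is a description and was not tested.

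ENSBTAG00000007415 had the lowest mean read count of the 6 genes, 657.9 over the 6 libraries. It was at 888.3, 1147 and 1020 in LF-LCL replicates 1 to 3 and at 235.5, 240.8 and 415.8 in SF-SCL replicates 1 to 3. The LF-LCL cows lay close together, and SF-SCL replicate 3 stood apart from its group, at 1.75 times the mean of the other 2 SF-SCL cows. The lowest LF-LCL cow was 2.14 times this high SF-SCL cow. The means were 1018 ± 129 and 297.4 ± 103 (SD, n = 3 each), a ratio of 3.42 and a log2 difference of 1.82 with a standard error of 0.288. Without SF-SCL replicate 3 the log2 difference was 2.08, the largest with any cow left out. The smallest was 1.675, without SF-SCL replicate 1.

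The 6 genes can be placed against the rule that picked them. Ordered by the ratio of the lowest LF-LCL cow to the highest SF-SCL cow, they took places 1 to 6 of the 1882 genes with a mean above 600. They were also the only genes of that abundance in which this ratio was above 2 (6 of 1882, 0.319%). The smallest ratio among them was 2.09, and the next genes had 1.99 and 1.96. In the opposite direction, no gene of this abundance had a lowest SF-SCL cow at over 2 times the highest LF-LCL cow, and the largest such ratio was 1.89. At the abundance limit the 6 genes ended at a mean of 657.9. A further 41 genes with a ratio above 2 had means under the limit, the highest of them 421.4. These orderings restate the choice of the genes and are given only to show where its edges lie.

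**Figure D2:**
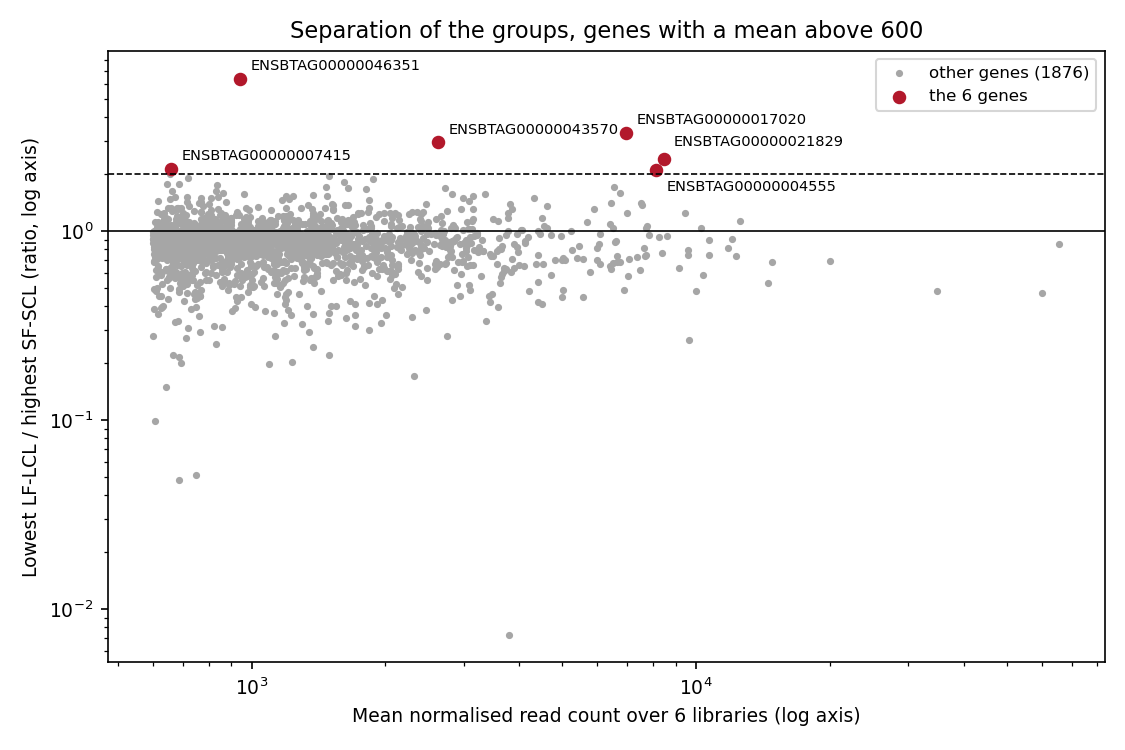
Ratio of the lowest LF-LCL cow to the highest SF-SCL cow (log axis) against the mean normalised read count over 6 libraries (log axis) for the 1882 genes with a mean above 600. The solid line marks a ratio of 1, above which the groups do not overlap, and the dashed line a ratio of 2, above which lie the 6 genes (red, 2.09 to 6.39).

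The size of the mean difference alone would have picked other genes. Among the 420 genes whose LF-LCL cows all lay higher, ENSBTAG00000046351 ranked first by log2 difference, ENSBTAG00000017020 ranked at place 3 and ENSBTAG00000043570 at place 5. ENSBTAG00000007415, ENSBTAG00000021829 and ENSBTAG00000004555 ranked at places 11, 12 and 20. A total of 14 other genes had a larger log2 difference than ENSBTAG00000004555, up to 2.51, but their groups lay closer together, and for the gene at 2.51 the lowest LF-LCL cow was 1.69 times the highest SF-SCL cow. The median log2 difference was 1.97 over the 6 genes and 0.06 over the 1882 genes with a mean above 600. Across all 12535 tested genes limma called 84 (0.67%) higher in LF-LCL at an adjusted p under 0.05. The calls of the 6 genes are not counted against this share, since the same contrast picked them.

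Several of the 6 genes varied widely between cows of the same regimen. The coefficient of variation within a group (SD over mean, 3 cows) was set beside that of all other genes whose mean in the same group lay within 1.5 times the gene's own, a match chosen after the data were seen. The widest spreads stood well above the median of those genes. ENSBTAG00000043570 had 40.3% in LF-LCL, where the median of 149 genes was 11.8%. ENSBTAG00000046351 had 35.8% in LF-LCL (median 11.0% of 566 genes) and 31.8% in SF-SCL (median 15.1% of 2003 genes). ENSBTAG00000007415 had 34.5% in SF-SCL (median 10.5% of 2324 genes) and ENSBTAG00000017020 had 31.4% there (median 8.95% of 404 genes).

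In the other cases the spread ran from near the median to well above it. In LF-LCL, ENSBTAG00000004555 had 16.3% and ENSBTAG00000017020 had 16.6%, where the median of 28 genes was 15.7% for both. ENSBTAG00000007415 had 12.7% in LF-LCL (median 10.5%), and ENSBTAG00000043570 had 12.3% in SF-SCL (median 8.51%). Further above the median, ENSBTAG00000021829 had 25.4% in LF-LCL (median 17.5%) and 22.6% in SF-SCL (median 8.80%). ENSBTAG00000004555 had 19.0% in SF-SCL (median 9.12%). In these cases 73.9%, 82.5% and 78.4% of the similar genes, respectively, had a lower value. In the cases nearer the median, in the order given above, it was 50%, 53.6%, 62.7% and 68.1%. Counting error alone would give from 0.865% to 3.02% in LF-LCL and from 1.66% to 10.0% in SF-SCL, the largest for ENSBTAG00000046351. A coefficient of variation from 3 cows is itself imprecise, and neither the difference from other genes nor that between the regimens was tested.

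**Figure D3:**
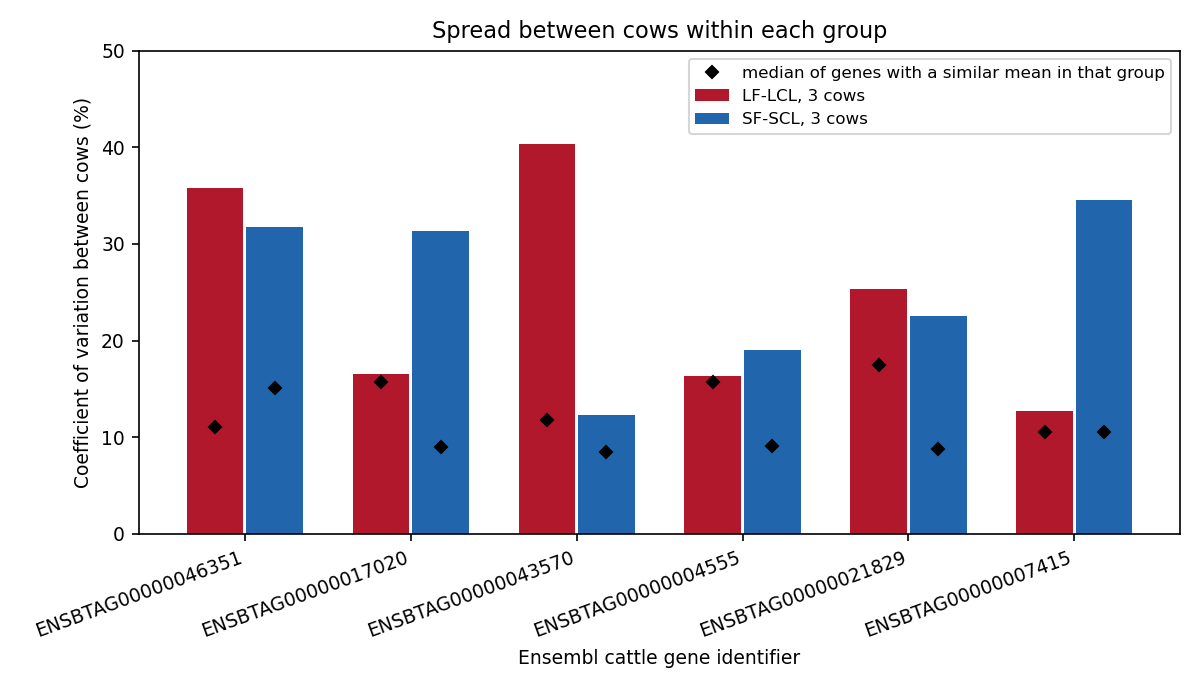
Coefficient of variation between the 3 cows of a group (bars, percent) for each of the 6 genes, with the median of other genes of similar mean in the same group as black diamonds. The bars run from just above the diamond, as for ENSBTAG00000004555 in LF-LCL (16.3% against 15.7%), to far above it, as for ENSBTAG00000043570 in LF-LCL (40.3% against 11.8%).

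The spread within groups was partly shared among the genes. LF-LCL replicate 2 was the highest of its group for 4 of the 6 genes and the lowest for 0. SF-SCL replicate 3 was likewise the highest of its group for 4 genes and the lowest for 0, and SF-SCL replicate 2 was the lowest for 4. The exceptions were ENSBTAG00000046351, highest in replicate 1 of both groups, ENSBTAG00000017020, highest in LF-LCL replicate 3, and ENSBTAG00000043570, which was nearly equal in SF-SCL replicates 2 and 3. SF-SCL replicate 3 exceeded the mean of the other 2 SF-SCL cows by a ratio of 1.64 for ENSBTAG00000017020, 1.42 for ENSBTAG00000021829 and 1.37 for ENSBTAG00000004555. For ENSBTAG00000043570 the ratio was 1.11, and for ENSBTAG00000046351 it was 0.881, so this cow did not stand nearer to the LF-LCL level for every gene of the set. The sum of normalised read counts over all genes was also highest in LF-LCL replicate 2 of its group (4866701, against 4391652 and 4530405). In SF-SCL it was highest in replicate 3 (4477800, against 4375213 and 4359393). Taken as a share of that sum, each gene was highest in the same cow of each group, and the part of the sum in the shared spread was not tested.

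**Figure D4:**
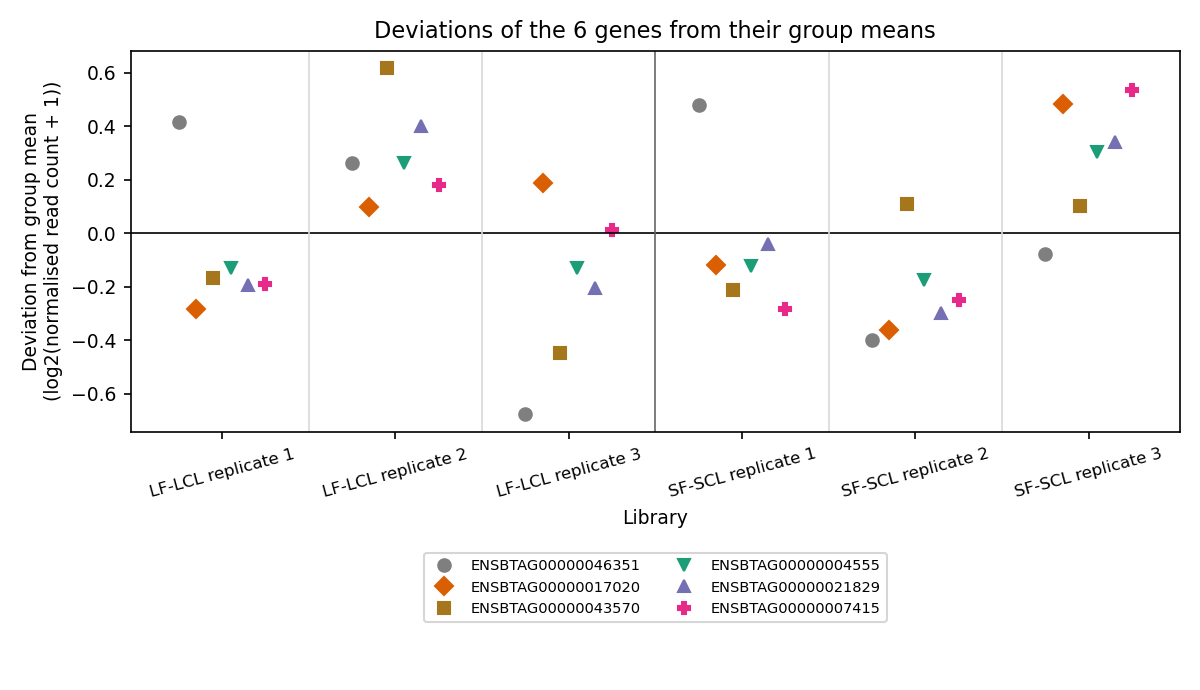
Deviation of each of the 6 genes from its group mean on the log2(normalised read count + 1) scale, by library, with 1 symbol per gene. In SF-SCL replicate 3 the points of 4 genes lie between 0.302 and 0.535 above their group mean, while ENSBTAG00000046351 lies at -0.08 there and spans -0.68 to 0.42 in LF-LCL.

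With the difference between the regimens removed, some of the genes followed each other from cow to cow and others did not. Pearson's r of log2 values over the 6 libraries was 0.920 to 0.997 for the 15 gene pairs, which mainly restates the difference they were picked for. For deviations from the group means, which leave 4 degrees of freedom over the 6 libraries, r was highest between ENSBTAG00000004555 and ENSBTAG00000021829 (0.968). Among the 4 genes ENSBTAG00000017020, ENSBTAG00000004555, ENSBTAG00000021829 and ENSBTAG00000007415, grouped after the values were seen, r was 0.699 to 0.968 for the 6 pairs. The other 9 pairs, which involve ENSBTAG00000046351 or ENSBTAG00000043570, had r of -0.23 to 0.696. ENSBTAG00000046351 followed the others least, with a mean r of 0.083 with the other 5 genes. All these values come from the same 6 libraries and share their size factors, so no p is given.

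Outside the set, genes that deviated like the 6 ranged widely in their difference between the regimens. Of 1876 other genes with a mean of 600 or more, ENSBTAG00000008314 and ENSBTAG00000025564 had the highest mean r of deviations with the 6 genes, 0.757 for each, and the gene ranked next also had 0.757. The median over the 1876 genes was 0.219, and 70 genes had a mean r above 0.7. The log2 difference of these 70 genes ran from -0.49 to 2.03 with a median of 0.11. The LF-LCL cows lay above all SF-SCL cows for 19 of the 70 and below for 4. Over all 1882 genes with a mean above 600 they lay above for 420 (22.3%) and below for 219, and the 70 were not tested against these. ENSBTAG00000008314 was at 1147 ± 123 in LF-LCL and 981.4 ± 118 in SF-SCL (SD, n = 3 each), with overlapping groups. ENSBTAG00000025564 was at 1161 ± 124 and 1253 ± 144 (SD, n = 3 each), and its groups overlapped as well. Their log2 differences were 0.23 and -0.11.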

How the data were processed

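Endometrial RNA was sequenced from 6 cows, 3 per regimen, and groups come from the sample titles. The deposited values are a signal per gene, counts of reads over the library's size factor, as read from the values: every value was a whole multiple of the smallest in its column, within 0.01 reads, for 100% of values. The submitters' processing notes list, without roles, DESeq 1.12.1, HTSeq 0.5.4p2, SAMtools 0.1.18, Bowtie2 2.1.0 and CASAVA 1.8.2. The sources used here do not give the genome build, annotation or strand setting, so reads shared with overlapping or near-identical genes were not examined.

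The 6 genes and all measures were chosen with earlier results of these data known. Log2 differences are of log2(value + 1), with standard errors from both group SDs. Genes with a mean of at least 1 were tested with limma 3.58.1 (R 4.3.3, mean-variance trend, Benjamini-Hochberg adjustment over 12535 genes). As alternatives, edgeR 4.0.16 and DESeq2 1.42.0 were run on recovered reads, next to other pseudocounts, scalings and filters and leaving out each library. Beyond the 6 genes, those 2 with the highest mean correlation of deviations were named. Of 24616 identifiers, 0 matched the gene table, so the lists of marker and hormone-response genes drawn up by symbol were not used. Replicate numbers follow accession order, and p-values set the difference between group means against the spread between these cows. In limma, the spread of a gene was drawn towards a trend with the mean, fitted over all tested genes. With edgeR and DESeq2 the estimate of spread likewise drew on other genes. The labels give no batch.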

Additional observations from a re-analysis of the deposited data

How the results depend on the processing

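Across 66 values, the log2 differences of the 6 genes kept their direction under other pseudocounts, scalings and left-out cows. Each moved by less than the spread between cows. The kept direction is no support, since the genes were picked with every LF-LCL cow above every SF-SCL cow. Leaving out a cow or changing the pseudocount could not reverse it. Scaling factors of 0.924 to 1.03 could not either, at a smallest ratio of lowest to highest cow of 2.09. The largest ranges came from leaving out 1 cow: 3.62 to 4.16 for ENSBTAG00000046351 and 1.81 to 2.34 for ENSBTAG00000043570. Under TMM, upper quartile and share-of-total scaling the LF-LCL cows lay above the SF-SCL cows for all 6 genes, with a smallest ratio of lowest to highest cow of 2.07. The order by the ratio of lowest to highest cow was less stable: 6 of the 6 led it under these scalings, but 2 without SF-SCL replicate 3 and 4 without any 1 LF-LCL cow. The mean of 1 of the 6 genes fell under 600 without LF-LCL replicate 2 or 3. Genes of this abundance with LF-LCL cows all higher numbered 420, 336 to 430 under other scalings and 455 to 623 with 1 cow left out. Limma called 121 genes, edgeR 85 and DESeq2 684; the cause of the different counts was not tested. With 1 cow left out, limma gave between 0 and 370 calls. Dropping SF-SCL replicate 3 gave 370, dropping SF-SCL replicate 1 gave 2, and dropping LF-LCL replicate 1 or LF-LCL replicate 3 gave 1 and 12. Dropping LF-LCL replicate 2 or SF-SCL replicate 2 gave 0 with limma and with edgeR, although limma's unadjusted p was below 0.05 for 1865 and 1580 genes. No paired analysis was run, since each cow was under 1 regimen and the labels give no pairs. The within-group spread of the 6 genes was above the median of genes with a similar mean in 12 of 12 cases. That held with genes matched on the mean over all libraries or, added after the data were seen, on that of the same group. The match over all libraries sets ENSBTAG00000046351 and ENSBTAG00000007415 in SF-SCL against genes with more reads there. The 12 cases come from the same 6 libraries that picked the genes and are not independent, so the tally is only a description. With the match on the same group, 50% of similar genes had a lower value for ENSBTAG00000004555 in LF-LCL, and 53.6% for ENSBTAG00000017020 there. Depth limits mainly ENSBTAG00000046351 in SF-SCL, which rested on 72 to 126 reads per cow.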
